A study of Sus scrofa with 4 samples.

Results

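CXCL2, CCL2, CCL16 and CCR1 are 3 inflammatory chemokines and 1 chemokine receptor, described here in pig liver after clenbuterol feeding. Their probe sets were found by gene symbol or by the array design's description, and were kept where that description named the same gene. This gave 6 probe sets for the 4 genes, among 1165 probe sets for 975 genes with an accepted name. A probe set is a group of short probes that reads 1 transcript, and levels of different probe sets are not comparable. The genes were picked because they were higher with clenbuterol in these same arrays, so their difference between clenbuterol and control is given as a description, with no test.

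The clenbuterol group was 2 Chinese miniature pigs fed clenbuterol, a β2-adrenergic agonist, for 8 weeks: the diet gave 25 mg/kg 2 times daily over the first 4 weeks, then 50 mg/kg until the end. The control group was 2 pigs of the same breed fed the same way without the drug. All were 8 weeks old and 18 kg on average when feeding began and 4 months old at sampling, with a male (replicate 1) and a female (replicate 2) per treatment. Liver RNA of each pig was hybridised to 1 Affymetrix porcine array. The pigs were full sibs in sets of 1 sex, and the wording leaves unclear whether sibs shared a treatment. Both of the deposited value tables were used: GCRMA values on the log2 scale, whose columns show the group but not the sex, and linear intensities of the same arrays, here called series intensities, whose columns show both.

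Chemokines are small secreted proteins that draw leukocytes along a gradient by binding G-protein-coupled receptors. CXC chemokines such as CXCL2 act mainly on neutrophils, and CC chemokines such as CCL2 act mainly on monocytes and lymphocytes. In liver, resident macrophages, stellate cells, endothelium and hepatocytes can release them during inflammation, often under control of the transcription factor NF-kB.

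The arrays were similar in overall level, with medians of 6.62 and 6.61 (log2 GCRMA) on the clenbuterol arrays and 6.67 and 6.66 on the control arrays. The 10 measured hepatocyte markers were bright in both groups, as for ALB at 15.30 ± 0.01 with clenbuterol and 15.32 ± 0.01 in control (log2, SD, n = 2 each). Hybridisation spikes, 27 probe sets for RNA added at a fixed amount, were lower by a log2 difference of -0.37 on the clenbuterol arrays. The signal ratio of 3′ to 5′ probe sets, a measure of RNA length, was lower with clenbuterol in all 5 pairs of control probe sets. For actin it was 1.79 and 2.18 (log2, male and female) with clenbuterol, against 2.50 and 2.47 in control. The part of RNA length in the results below was not tested.

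A probe set was tested where its GCRMA value reached 4 (log2) on at least 2 arrays, which 4 of the 6 did. In the GCRMA values, 5 of the 6 probe sets, all 4 tested ones among them, were higher on both clenbuterol arrays than on both control arrays, where 30.8% of the 11931 tested probe sets were and 37.3% were lower on both. In the series intensities all 6 were, where 29.1% of tested probe sets were. These counts follow from how the genes were picked and are read no further. One of the CXCL2 probe sets and CCR1 passed only through the clenbuterol arrays, so they had to differ. Just inside that limit stood CCR1, with 4.15 and 4.45 on the clenbuterol arrays, and just outside it a CXCL2 probe set with 1 array above 4. Whether more cells of a type or more RNA per cell lies behind a level cannot be told apart in whole tissue.

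CXCL2, a chemokine that attracts neutrophils through the receptor CXCR2, had 3 probe sets, and they differed widely. The first rests on a partial coding sequence and is called here the partial-sequence probe set. It read 9.0 and 8.79 (log2 GCRMA) on the clenbuterol arrays, against 3.74 and 3.97 on the control arrays. The control arrays were thus both under the limit of 4, and the groups were 4.83 apart at their nearest. The means were 8.89 ± 0.14 with clenbuterol and 3.85 ± 0.16 in control (SD, n = 2 each), a difference of 5.04 ± 0.13 (SE) or 32.9-fold. The second, called the transcript-matched probe set, read 4.23 and 3.74 with clenbuterol, against 3.54 and 3.20 in control. The difference was 0.62 ± 0.23 (SE of a fit without that limit) or 1.53-fold. The third, called the human-similar probe set, was near the floor on every array, with 2.58 and 2.64 in clenbuterol livers and 2.59 and 2.61 in control livers. The groups overlapped there.

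The annotation of the 3 CXCL2 probe sets differs as well. The transcript-matched probe set has 11 matching probes, annotation grade A, and a gene ID that the gene table of the Sscrofa11.1 assembly lists as CXCL2. The other 2 carry the gene ID 396594, which that table does not hold, at grade E, and the design describes the human-similar probe set as moderately similar to human CXCL2. The probe set with the wide difference is therefore not the one with the firmest match to the CXCL2 gene. In the gene order of that assembly, CXCL2 follows PPBP, another CXC chemokine gene, and 2 loci with no gene name.

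CCL2, also called MCP-1, recruits monocytes through CCR2. It had 1 probe set, with 11 probes that match its transcript. It read 7.28 and 7.25 (log2 GCRMA) on the clenbuterol arrays, against 5.29 and 5.45 on the control arrays. All 4 arrays were above 4, and the groups were 1.79 apart at their nearest. The means were 7.26 ± 0.02 with clenbuterol and 5.37 ± 0.11 in control (SD, n = 2 each), a difference of 1.89 ± 0.09 (SE) or 3.7-fold. CCL2 follows CCL1, CCL8 and CCL11 in the gene order.

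CCL16, known in human as a chemokine made by hepatocytes, was named only from the design's description, moderately similar to human CCL16, at grade E. Its probe set was bright on every array, with 14.14 and 14.17 (log2 GCRMA) in clenbuterol livers and 13.93 and 14.03 in control livers. The highest value of any probe set on the arrays was 15.61. The groups did not overlap but lay only 0.11 apart. The difference was 0.18 ± 0.08 (SE, n = 2 each) or 1.13-fold, against a median over tested probe sets of -0.03. The gene stands between CCL14 and CCL5 in the gene order.

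CCR1, a receptor for several CC chemokines on monocytes and neutrophils, read 4.15 and 4.45 (log2 GCRMA) on the clenbuterol arrays, against 3.66 and 3.23 on the control arrays. All 4 values lay close to the limit of 4. The means were 4.30 ± 0.22 with clenbuterol and 3.44 ± 0.31 in control (SD, n = 2 each), a difference of 0.86 ± 0.19 (SE) or 1.81-fold. It has 11 probes that match the CCR1 transcript.

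**Figure D1:**
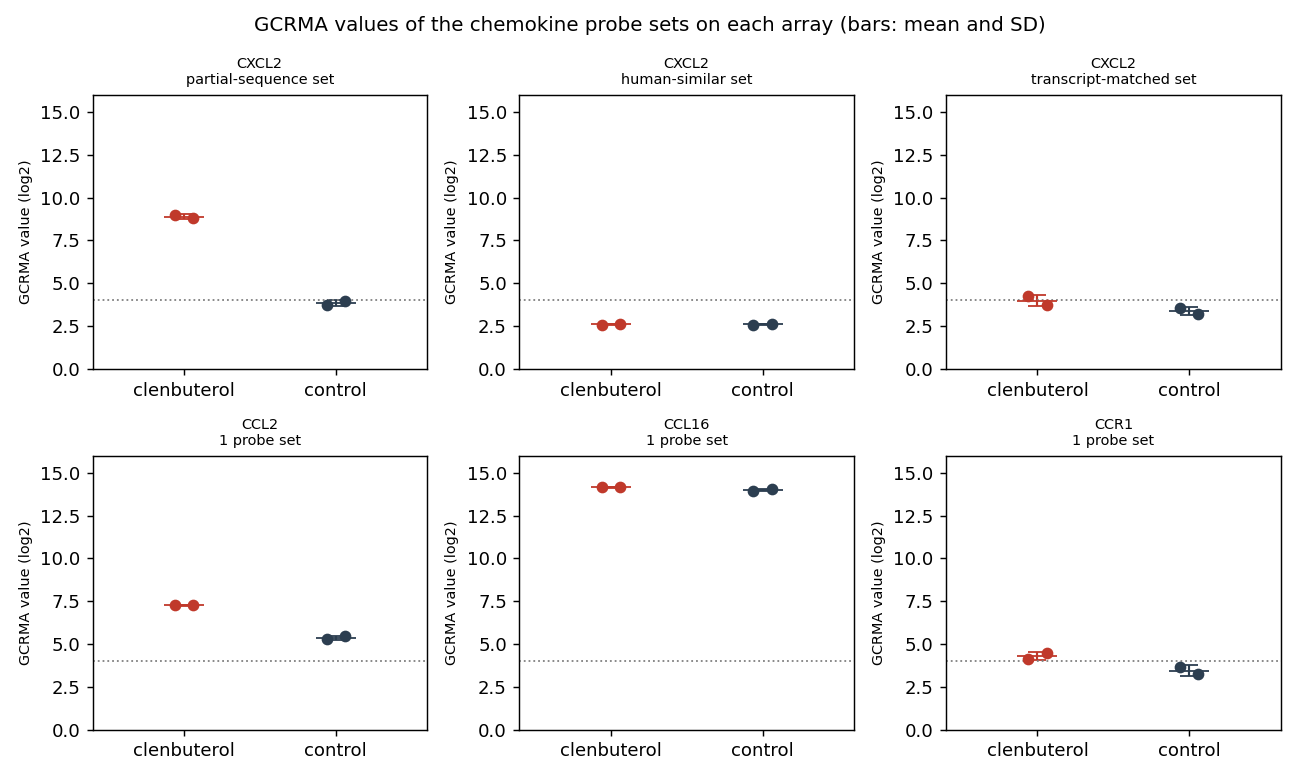
GCRMA value (log2) of each of the 6 probe sets on the 2 clenbuterol and 2 control arrays, with points for arrays, bars for the mean and SD (n = 2) and a dotted line at the limit of 4. The CXCL2 partial-sequence probe set and CCL2 are well separated, CCL16 is high in both groups and CCR1 straddles the limit.

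The size of the difference depended on the table for some of the probe sets. The CXCL2 partial-sequence probe set had series intensities of 1936 (male) and 1822 (female) with clenbuterol, against 158 and 126 in control, a mean log2 difference of 3.74 or 13.3-fold. In the GCRMA values, where both control arrays were just under the limit of 4, it was 32.9-fold. The reason for the gap between the tables was not tested. The CXCL2 human-similar probe set, whose groups overlapped in the GCRMA values, had intensities of 45.6 and 29.7 with clenbuterol, against 12.9 and 3.38 in control, or 5.58-fold. For CCR1 the intensities were closer together, at 159 and 154 with clenbuterol and 137 and 120 in control, or 1.22-fold, below its 1.81-fold in the GCRMA values.

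CCL2 and CCL16 differed less between the tables. CCL2 had log2 series intensities of 8.92 (male) and 8.64 (female) with clenbuterol, against 6.66 and 7.34 in control, or 3.44-fold. CCL16 had 26266 and 27697 with clenbuterol, against 20926 and 24427 in control, or 1.19-fold. The CXCL2 transcript-matched probe set had 92.3 and 76.8 with clenbuterol, against 44.9 and 43.6 in control, or 1.9-fold. When arrays were scaled to the spikes, the median of all tested probe sets moved to 0.35. Scaled so, the log2 difference was 4.11 for the CXCL2 partial-sequence probe set, 2.16 for CCL2, 0.63 for CCL16 and 0.66 for CCR1. Relative to that median the differences were 3.76, 1.81, 0.28 and 0.32. These restate the unscaled differences, since the scaling shifts all probe sets of an array alike.

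**Figure D2:**
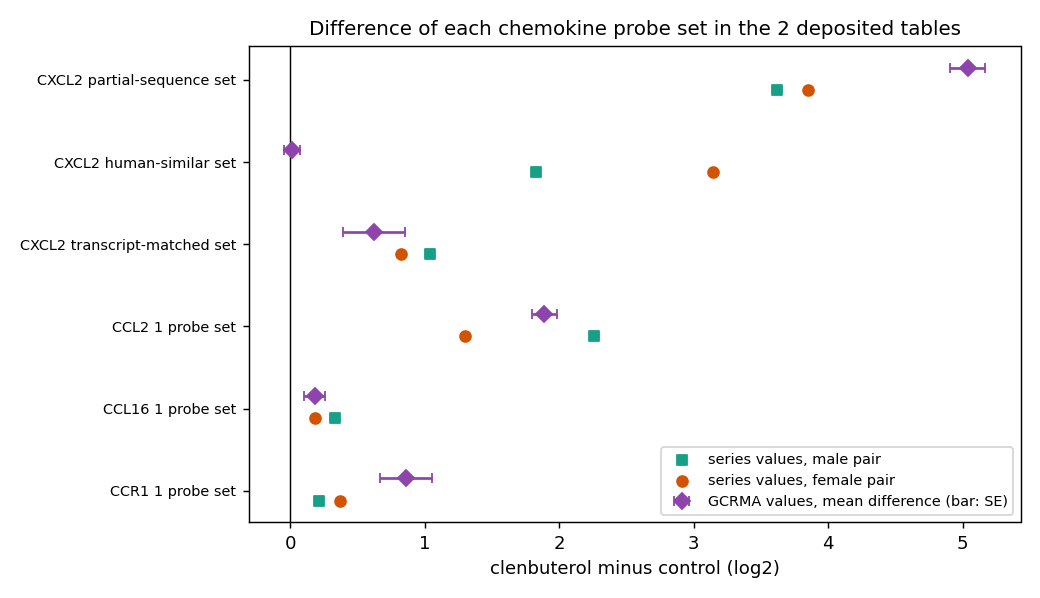
Clenbuterol minus control (log2) for each probe set: the mean difference in the GCRMA values with its SE (diamonds), and the difference of the male pair (squares) and of the female pair (circles) in the series intensities. The CXCL2 partial-sequence probe set lies at 5.04 in the GCRMA values and at 3.62 and 3.85 in the pairs, and the human-similar one at 0.01 against 1.83 and 3.14.

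Compared within each sex, all 6 probe sets were higher with clenbuterol in the male and in the female, where 34.7% of tested probe sets were. That had to be so, since the groups of all 6 did not overlap in the series intensities, and it is no separate support. For CCL2 the difference was 4.8-fold in the male pair and 2.46-fold in the female pair. The gap between the pairs was 0.96 (log2). The CXCL2 partial-sequence probe set was 12.3-fold higher in the male pair and 14.5-fold in the female pair. CCR1 was 1.16-fold and CCL16 1.26-fold higher in the male pair, and 1.29-fold and 1.13-fold in the female pair. With 1 pig per sex and group these gaps have no test.

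**Figure D3:**
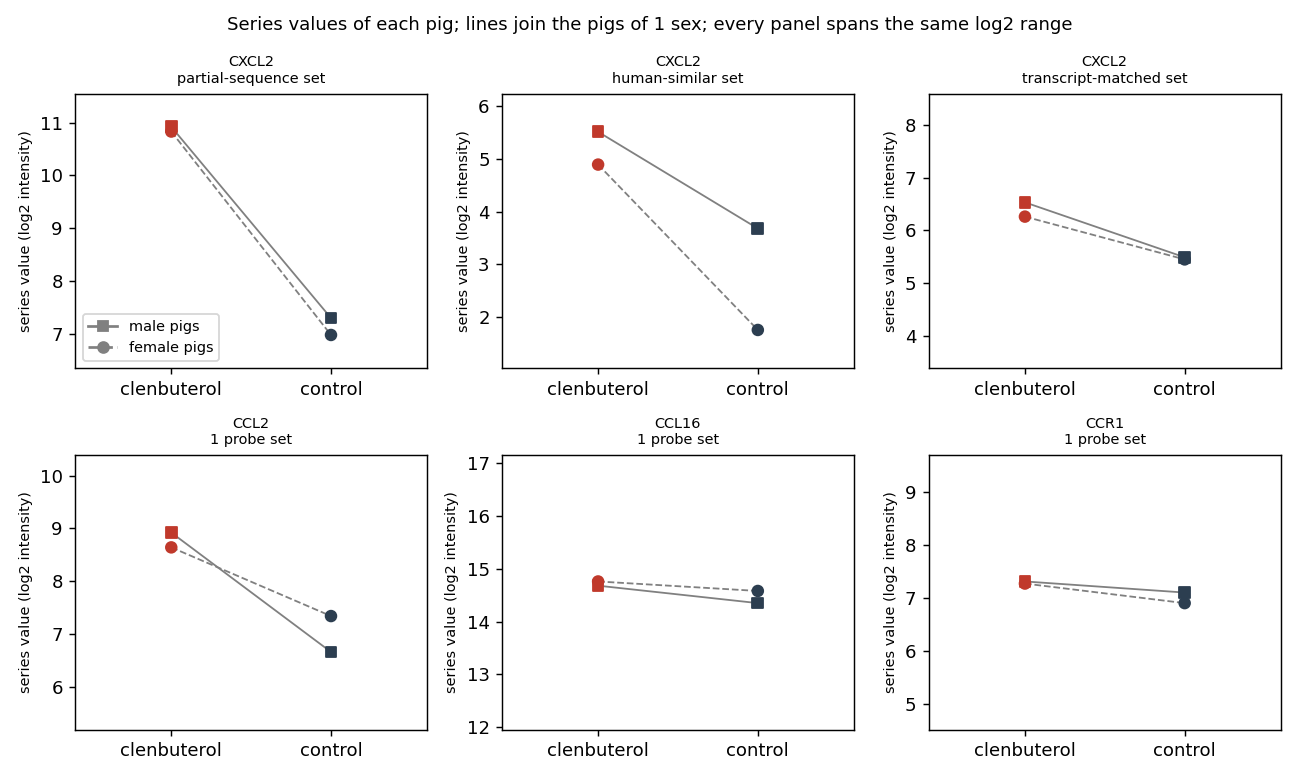
Series intensity (log2) of each probe set in each pig, squares for males and circles for females, with a line joining the pigs of 1 sex and panels that span the same log2 range. In every panel each clenbuterol pig lies above the control pig of its sex.

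Males against females is a contrast that the choice of genes did not use, and none of the 4 tested probe sets passed it. Male minus female, on log2 series intensities with group in the model, was 0.21 ± 0.12 (SE) for the CXCL2 partial-sequence probe set, with means of 9.11 in males and 8.90 in females. It was -0.20 ± 0.26 for CCL2, -0.15 ± 0.12 for CCL16 and 0.12 ± 0.12 for CCR1. The limma adjusted p ranged from 0.75 for CXCL2 to 0.864 for CCL2, and the unadjusted p was at least 0.173. Only 1 of the 11931 probe sets passed, 0.00838%, and it has no accepted gene name. Sex and replicate number cannot be told apart here.

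In the authors' deposited table, the signed folds of the 6 probe sets were 32.9, 1.53 and 1.01 for CXCL2 (partial-sequence, transcript-matched and human-similar), 3.7 for CCL2, 1.13 for CCL16 and 1.81 for CCR1. That table's flag for probe sets chosen by both of its tests marked 2 of them, the CXCL2 partial-sequence probe set and CCL2, where it marked 4.49% of 15383 probe sets. The flag rests on the same arrays and groups on which the genes were picked, so it is no separate support.

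Among chemokines outside the 4 genes, 8 genes were measured and tested, and the fit over all 11931 probe sets called 2 of them higher and 1 lower. For scale, 23.8% of tested probe sets were called, 11.4% higher and 12.4% lower, and of the 782 tested named genes 20.7% were higher and 6.01% lower. CCL19, which guides T cells and dendritic cells through CCR7, rose: it read 8.89 and 8.61 (log2 GCRMA) with clenbuterol, against 6.74 and 6.64 in control (4.16-fold, limma adjusted p = 0.0045), a log2 difference of 2.06 that was 1.09 in the series intensities. CCL4, which attracts monocytes and T cells, read 7.87 and 7.50 with clenbuterol, against 7.0 and 7.02 in control, and rose 1.6-fold (limma adjusted p = 0.0385). Leaving out 1 array gave 0.49 to 0.86 (log2) and ended the call for 3 of the 4 arrays, both controls among them (highest limma adjusted p = 0.116), and the series intensities gave a limma adjusted p of 0.0531. CCL5, a ligand of CCR1 and the gene next to CCL16, read 9.46 and 9.13 with clenbuterol and 9.50 and 9.22 in control, and did not pass (limma adjusted p = 0.797). CCL21 did not pass either (limma adjusted p = 0.764).

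Of the 4 other CXC chemokines, the list's median difference was -0.20 and none rose. CXCL14 fell, with 7.52 and 7.55 (log2 GCRMA) in clenbuterol livers and 7.88 and 8.07 in control livers (limma adjusted p = 0.0435). Leaving out any 1 array ended the call (limma adjusted p = 0.0759 to 0.15), and so did the series intensities (0.369), while the difference turned to 0.20 under spike scaling. AMCF-II, a pig chemokine of the neutrophil-attracting kind, read 11.59 and 11.77 with clenbuterol, against 11.93 and 11.94 in control, and did not pass (limma adjusted p = 0.134). CXCL12 and CXCL16 did not pass (limma adjusted p = 0.469 and 0.371).

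**Figure D4:**
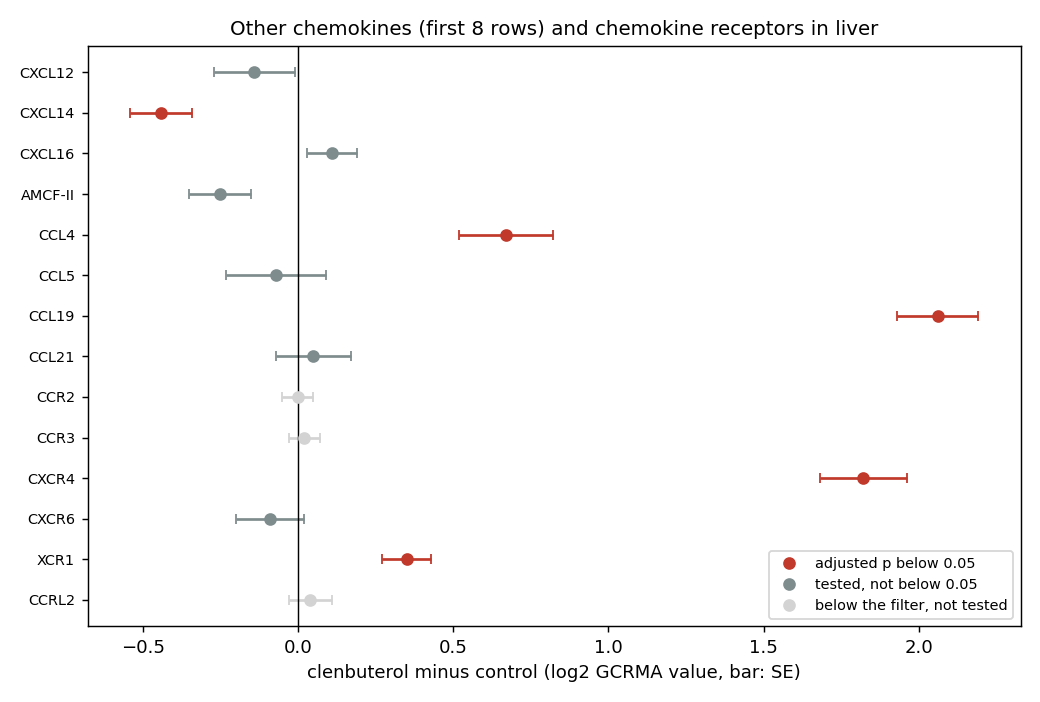
Clenbuterol minus control (log2 GCRMA, bar: SE, n = 2 each) of the other chemokines and chemokine receptors named in the text, coloured by whether the limma adjusted p was below 0.05. CCL19 lies at 2.06 and CXCR4 at 1.82, while CCL5 lies at -0.07 and CXCL12 at -0.14.

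Of 7 other chemokine receptors and scavengers in the table, 4 were tested and 3 rose. CXCR4, the receptor of CXCL12, read 7.80 and 8.12 (log2 GCRMA) with clenbuterol, against 6.21 and 6.07 in control (3.52-fold, limma adjusted p = 0.0058), a log2 difference of 1.82 that was 1.16 in the series intensities. XCR1, a receptor of cross-presenting dendritic cells, rose by 0.35 ± 0.08 (log2, SE, limma adjusted p = 0.0407). The CXCR4 call held whichever array was left out, and the XCR1 call ended without any 1 array (limma adjusted p = 0.111 to 0.152) and in the series intensities (0.071). CCR2, the receptor of CCL2, stayed under the limit at 2.05 and 2.08 with clenbuterol and 2.06 and 2.07 in control.

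CCR1 stands between XCR1 and CCR3 in the gene order, in a run of receptor genes that also holds CXCR6, CCR2 and CCRL2. XCR1, given above, rose. CXCR6 did not pass, with a difference of -0.09 ± 0.11 (log2, SE, limma adjusted p = 0.553). CCR3 at 1.83 and 1.86 with clenbuterol and 1.82 and 1.83 in control, and CCRL2 at 3.53 and 3.66 with clenbuterol and 3.56 and 3.54 in control, were under the limit.

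Genes upstream of chemokine expression were measured in part. Of 15 cytokines and pattern receptors in the table, 10 were tested and 4 rose, with a median difference of 0.44, against 0.10 over all named genes. These were IL18, an inflammasome cytokine (0.84 ± 0.09, log2, SE), CD14 and LBP, which present bacterial lipopolysaccharide (0.70 ± 0.08 and 0.51 ± 0.11), and CASP1, which processes IL18 (0.59 ± 0.09), with limma adjusted p of 0.0097 to 0.0362. None of these calls held whichever array was left out: the highest limma adjusted p was 0.0543 for IL18, 0.0578 for CD14, 0.0832 for CASP1 and 0.122 for LBP. In the series intensities the calls of CASP1 and LBP ended (limma adjusted p = 0.0609 and 0.129). TNF and IL6, which induce CCL2 and CXCL2 in many cells, were under the limit, with TNF at 3.84 and 3.68 with clenbuterol and 4.26 and 3.62 in control.

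Of 6 tested NF-kB and AP-1 factors and inhibitors, 3 rose and 1 fell. NFKBIA, the inhibitor that NF-kB itself induces, rose by 0.66 ± 0.08 (log2, SE), and JUN, an AP-1 subunit, by 1.09 ± 0.20. CEBPB, a factor of the acute phase response, fell by 0.42 ± 0.09, and its difference was 0.00 under spike scaling. The limma adjusted p was 0.0122 for NFKBIA, 0.0277 for JUN and 0.0348 for CEBPB, and the highest with 1 array left out was 0.0615 for NFKBIA, 0.0831 for JUN and 0.137 for CEBPB. In the series intensities the calls of JUN and CEBPB ended (limma adjusted p = 0.0655 and 0.0871).

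Of 9 tested genes on the list of NF-kB targets of adhesion and inflammation, 5 rose and 1 fell. Their control by NF-kB was not tested here. HAMP, the iron hormone hepcidin, rose by 1.73 ± 0.15 (log2, SE), VCAM1, an endothelial adhesion molecule, by 1.12 ± 0.12, and TIMP1, a protease inhibitor, by 1.01 ± 0.14, with limma adjusted p of 0.00628, 0.01 and 0.0146. Named after their values were seen were ICAM1, a leukocyte adhesion molecule, which rose by 0.42 ± 0.08, and the mitochondrial antioxidant enzyme SOD2, which fell by 0.47 ± 0.09 (limma adjusted p = 0.028 and 0.029). HAMP kept the call whichever array was left out, while the highest limma adjusted p was 0.054 for VCAM1, 0.0719 for TIMP1, 0.107 for SOD2 and 0.109 for ICAM1. In the series intensities TIMP1 differed by 0.37 (log2) and did not pass (limma adjusted p = 0.466), nor did ICAM1 (0.196) or SOD2 (0.0859).

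Of 7 tested genes of chemokine receptor signalling, 3 rose and none fell. RGS1, which shortens signalling of chemokine receptors in lymphocytes, read 6.76 and 6.93 (log2 GCRMA) with clenbuterol, against 4.38 and 4.05 in control (6.19-fold, limma adjusted p = 0.0043). ITGB2, the leukocyte integrin chain, rose by 0.73 ± 0.15 and PIK3CG, a leukocyte lipid kinase, by 0.59 ± 0.11 (log2, SE). RGS1 kept the call whichever array was left out, while PIK3CG reached 0.096 and ITGB2 0.123 (limma adjusted p). Both also did not pass in the series intensities (limma adjusted p = 0.0586 and 0.0836). CDC42 did not pass (limma adjusted p = 0.127). Over the 7 pathway lists, 44 genes were tested and 45.5% of them rose, against 20.7% of all tested named genes. The lists were chosen with earlier results of these data known, so this share is a description only. The count that rose was 20 in the GCRMA values and 11 in the series intensities, where the count over all tested probe sets went from 1365 to 690.

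Some markers of leukocytes and of other liver cells also differed between the groups, in both directions, and their part in the result was not tested. Limma called 0 of 10 hepatocyte markers, and 0 had an unadjusted p under 0.05. Their summed series intensity was 306035 to 331559 with clenbuterol and 305082 to 345849 in control. On the list of Kupffer cell and macrophage genes, 7 were tested: AIF1 (0.37 ± 0.08, log2, SE) and CD14, which is also on the upstream list, rose, MRC1 (-0.69 ± 0.09) fell, and 4 did not pass. AIF1 was 0.17 in the series intensities (limma adjusted p = 0.454), and MRC1 was -0.43 there (0.0859) and -0.05 under spike scaling (0.868), so both calls ended. The summed intensity of the list was 53226 to 54507 with clenbuterol and 48082 to 48547 in control. Both tested monocyte markers, CD86 (0.54 ± 0.11) and FCGR3A (0.46 ± 0.10), rose, while CCR2 and FCN1 were under the limit. In the series intensities neither passed, with 0.57 for CD86 (limma adjusted p = 0.0669) and 0.12 for FCGR3A (0.611). The sums overlapped, at 3464 to 3946 with clenbuterol and 3038 to 3645 in control.

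The neutrophil list rested on 1 tested gene. NPG4, a neutrophil antimicrobial peptide, read 5.56 and 4.97 (log2 GCRMA) with clenbuterol, against 2.84 and 2.69 in control. It passed the limit of 4 only through the clenbuterol arrays, so it had to differ, and no size is read from controls near the floor. It was accepted by the gene ID in its description, which names the related PMAP37. The neutrophil genes PR39 and LTF were under the limit on every array. The list's summed series intensity is therefore that of NPG4 alone, at 121 to 165 with clenbuterol and 5 to 11 in control. It comes from the same arrays and is no separate support.

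Among 4 tested genes of T and NK cells, CD2 rose by 0.89 ± 0.11 (log2, SE) and CD3E, CD8A and KLRK1 did not pass, with a sum of 1730 to 1770 with clenbuterol and 1323 to 1438 in control. Of 6 stellate cell and fibroblast markers, 4 rose, including COL1A1 by 1.42 ± 0.11, and RGS5 fell by 1.37 ± 0.20. Their sum was 14255 to 14602 with clenbuterol and 10477 to 10612 in control. In the series intensities COL1A1 and RGS5 passed (limma adjusted p = 0.0143 and 0.0292). The rises of COL3A1 and TIMP1 did not pass there (limma adjusted p = 0.0756 and 0.466). Of 6 endothelial markers, PECAM1 and CLDN5 rose and VWF fell, with a sum of 4518 to 5200 with clenbuterol and 4775 to 4899 in control. None of these 3 passed in the series intensities (limma adjusted p = 0.0526, 0.226 and 0.0852). The cholangiocyte list had 3 tested genes, of which CLDN4 and GGT1 fell. Neither passed in the series intensities (limma adjusted p = 0.224 and 0.256) and both differences were above 0 under spike scaling, with a sum of 1070 to 1308 with clenbuterol and 1302 to 1326 in control. Of the marker calls, COL1A1 held whichever array was left out, as did NPG4, which had to differ, and the others ended for at least 1 array. No B cell, plasma cell or erythroid marker had an accepted name.

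The genes whose profile over the 4 arrays was most like each of the 4 genes were found by Euclidean distance of centred log2 GCRMA values among 781 genes. Nearest to the CXCL2 partial-sequence probe set were RGS1, NPG4 and TCN1, a vitamin B12 carrier of neutrophil granules, at distances of 2.46, 2.57 and 2.66, none with as wide a difference. Nearest to CCL2 were DIO1, which converts thyroid hormone, at 0.12, an immunoglobulin G heavy chain at 0.21 and HAMP at 0.24. Nearest to CCL16 were CS, KPNA2 and F2, at 0.01 to 0.03. Nearest to CCR1 were PLN, HMG-CoA reductase and CD2, at 0.18 to 0.24. With 4 arrays, such likeness mostly restates a like difference between the groups.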

How the data were processed

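Liver RNA (6 ug per pig) of 4 pigs was hybridised to 1 array each. The authors deposited log2 values for 15383 probe sets, made with GCRMA per the file headers. They also deposited linear intensity values for 24123 probe sets. No source used here says how these were made; their trimmed mean of 499.8 on each array shows scaling. The authors' deposited table holds a signed fold as a score, p-values, q-values and another column with a 0 or 1 flag, per the file headers.

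Gene symbols of the deposited annotation were brought up to date with a pig gene table (Sscrofa11.1, used for names and gene order) and accepted where the array description carried the same gene ID, symbol or title. That rule followed a reading of the annotation. Probe sets reaching 4 (log2) on at least 2 arrays were fitted in limma 3.58.1 (R 4.3.3; lmFit, eBayes), with group alone for clenbuterol, and with group and sex on log2 intensities for males against females. Benjamini-Hochberg adjustment was used at 0.05, and the fits were tested on simulated data. The p-values and SE come from limma, which draws the spread of each probe set towards that of all fitted probe sets. For untested probe sets the SE is that of a fit without the limit of 4. All rest on these 4 pigs only, and the number of arrays limits precision.

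The genes and lists were chosen with earlier results of these data known. Of each list, up to 4 genes with the smallest p were named, with direct ligands or receptors of the 4 genes. A few genes that these rules name, and that count in the totals of their lists, are not reported here. Alternatives were the other table, a replicate block, other filters, an intensity trend, other scalings, a pseudocount of 16 and leaving out each array.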

Additional observations from a re-analysis of the deposited data

Results flagged for a closer look

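In 10 of the other list and marker genes, the series differences had opposite signs in the 2 sexes, some of them near 0. This was not tested, and some further list genes did so too. Clenbuterol minus control (log2) was 0.13 in males and -0.13 in females for CXCL12, 0.06 and -0.13 for CCL5, 0.11 and -0.16 for CXCR6, and -0.18 and 0.46 for CCRL2. For TNF it was -0.45 in males and 0.69 in females. For TIMP1 it was -0.23 in males and 0.97 in females, although TIMP1 passed in the GCRMA values. For the markers it was -0.05 in males and 0.53 in females for CD3E, 0.10 and -0.04 for AHSG, 0.02 and -0.06 for ALB, and 0.05 and -0.06 for LYVE1.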

How the results depend on the processing

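Of the 6 chemokine probe sets, 5 kept the sign of their difference under the alternatives run for them, which were fewer for the 2 untested probe sets. The groups of these 5 did not overlap in either table, so leaving out 1 array could not turn the sign. Filters and the intensity trend leave a difference as it is. The CXCL2 human-similar probe set, near 0 in the GCRMA values, ranged over -0.02 to 0.04 (log2) with 1 array left out. Its series difference of 2.48 became 1.17 with a pseudocount of 16. Leaving out 1 array gave 4.93 to 5.16 (log2) for the CXCL2 partial-sequence probe set, 0.37 to 0.86 for the transcript-matched one, 1.81 to 1.97 for CCL2, 0.13 to 0.22 for CCL16 and 0.64 to 1.07 for CCR1. Of 11931 probe sets, 2843 passed, against 1326 in the series intensities without a replicate block, 1054 with the replicate block, 1630 with a pseudocount of 16 and 579 to 1213 when 1 array was left out. Of the pathway list genes 23 passed, against 11, 9, 12 and 5 to 12 under the same settings. The deviations of same-numbered pigs correlated at 0.18, and they share sex and possibly family, so the block stands for these too. Males against females gave 1 probe set, 0 without the filter and 2 with the pseudocount. Scaling to the spikes turned the split of 1365 higher and 1478 lower into 2959 and 254, and reversed CXCL14 (0.20), CEBPB (0.00), CLDN4 (0.08) and GGT1 (0.11); the cause was not tested. Of 35 list and marker genes that passed and were named, 16 kept the call in the series intensities and 7 kept it whichever array was left out. With 2 pigs per group, values near the limit of 4, such as CCR1 and 2 of the CXCL2 probe sets, set no firm size.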

Other observations

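A probe set that the array design describes only as weakly similar to CXCL13, a chemokine that attracts B cells, was left out of the chemokine counts and was chosen after its values were seen. It read 5.47 and 5.68 (log2 GCRMA) on the clenbuterol arrays, against 2.87 and 2.89 on the control arrays. It passed the limit of 4 only through the clenbuterol arrays, so it had to differ, and no size is read from it. A second probe set with that description read 2.80 and 3.08 with clenbuterol and 2.79 and 2.82 in control, under the limit of 4. Probe sets described as weakly similar to CXCL4 and CXCL9 differed by -0.22 and 0.02.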
